A study of Mus musculus with 14 samples.

Results

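Whole heads of mouse embryos at stage E12.5 that carried no intact copy of Zcchc8 were compared with heads that carried one, a comparison that asks what the loss of the last allele does to RNA. The libraries were 6 from Zcchc8-/- heads (KO1 to KO6) and 3 from Zcchc8+/- heads (HET3, HET4 and HET5), together 9 of the 14 libraries of the study. The other 5 came from Zcchc8+/+ heads (WT) and are given as background. All embryos were of the C57BL/6J strain and were taken at E12.5, and the RNA came from the entire head including the brain, prepared as strand-specific mRNA libraries. No treatment is named. The labels do not say which part of Zcchc8 is altered or in which cells, nor whether each library stands for a separate embryo. The p-values therefore measure the spread between these samples, which may in part be technical. A whole head mixes many tissues, so fewer cells of a type and less RNA per cell cannot be told apart.

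ZCCHC8 holds together NEXT, the nuclear exosome targeting complex, by joining the RNA helicase MTR4 (gene Skiv2l2) to the RNA-binding protein RBM7. NEXT hands unstable nuclear RNA to the RNA exosome, a 3′ to 5′ ribonuclease, for decay or trimming. Its known substrates include transcripts made upstream and antisense of active promoters, enhancer RNAs, read-through products of histone and small nuclear RNA genes, and the precursor of telomerase RNA.

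The values were FPKM (fragments scaled to transcript length and to library size) for 67811 loci, the features of the deposited tables. A locus can carry 1 gene name, several or none, and loci without a name are called unannotated here. The 18217 loci that reached 0.5 FPKM in 3 or more of the 14 libraries were tested as log2(FPKM + 0.1) with limma-trend, and differences with a Benjamini-Hochberg adjusted p under 0.05 are called. All log2 differences below are on that scale and are KO minus HET unless said otherwise. They understate changes of loci near 0.

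The deposited tables list the loci of 21 of the 22 chromosomes or scaffolds in 3 ascending runs. Among loci with a single coding gene name, the locus with the highest mean FPKM was taken for each gene. Of the 16722 so taken that lie in the first 2 runs, 16368 (97.9%) fit the annotated strand. That is plus in the first run and minus in the second. Less abundant loci of the same gene did not enter this count. The first 2 runs were therefore read as the 2 strands and the third as loci without a strand. The sources used here do not give whether counting used strand, so fragments of loci that overlap on both strands may not be fully told apart.

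The genotypes were compared at a similar depth. Relative depth, read from the smallest FPKM steps, was 1.32, 1.23 and 1.3 times that of WT1 in HET3, HET4 and HET5 and ran from 1.15 to 1.49 in the KO libraries (difference of means 0.026, two-sided exact permutation p = 0.762, n = 6 and 3). HET3, KO2 and KO3 had Y-linked RNA at the level of male libraries and little Xist. HET4 had Xist at the level of a female library and also a trace of Y-linked RNA, with Ddx3y at 0.406 FPKM, which is 2.66% of the male mean, against at most 0.0159 in the other female libraries. Counts that move by over 1.5 times without HET4 are given below also without it.

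Zcchc8 RNA was lower in every KO library than in every HET library but was not absent. At the Zcchc8 locus (mm10, chromosome 5, 123698294 to 123721100, minus strand), FPKM was 26, 24 and 27.2 in the HET libraries, and the KO libraries had a lowest value of 9.27, a median of 15.1 and a highest of 20.6. The groups did not overlap, and WT libraries lay above both at 36.6 to 42.3. KO heads kept 60.3% of the HET level. The log2 difference was -0.77 (SE 0.17, limma-trend adjusted p = 0.0038), and p was 0.0238 in a two-sided exact permutation test, which cannot go lower with 6 and 3 libraries. With female libraries alone the difference was -0.74 and no longer called (limma-trend adjusted p = 0.159). The other NEXT subunits did not pass the test. Rbm7 was at 28.9, 30 and 30 FPKM in HET and 26.9 to 32.9 in KO (log2 -0.02, SE 0.06), and Skiv2l2 had a log2 difference of 0.12 (SE 0.06, limma-trend adjusted p = 0.157).

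The KO libraries held RNA from more loci. Loci with an FPKM of at least 0.1 numbered 20642, 19927 and 20448 in HET3, HET4 and HET5, and 22666 to 25272 in KO, so that every KO library lay above every HET library. KO libraries averaged 24262 ± 988 (SD, n = 6), and HET libraries averaged 20339 ± 370 (SD, n = 3) (two-sided exact permutation p = 0.0238). Unannotated loci at that level numbered 1983, 1744 and 1882 in HET and 3602 to 4882 in KO (two-sided exact permutation p = 0.0238). WT libraries had 1789 to 1879, within the range of the HET libraries. KO1 was the lowest KO library in both counts. Both counts run over the listed loci, and some of these, such as XLOC_011569, were at 0 in all HET and WT libraries. A list that holds loci seen only in KO libraries favours KO in such counts, and the p-values do not allow for this. The plot of values by library and genotype shows the separation beside the overlapping depths.

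**Figure D1:**
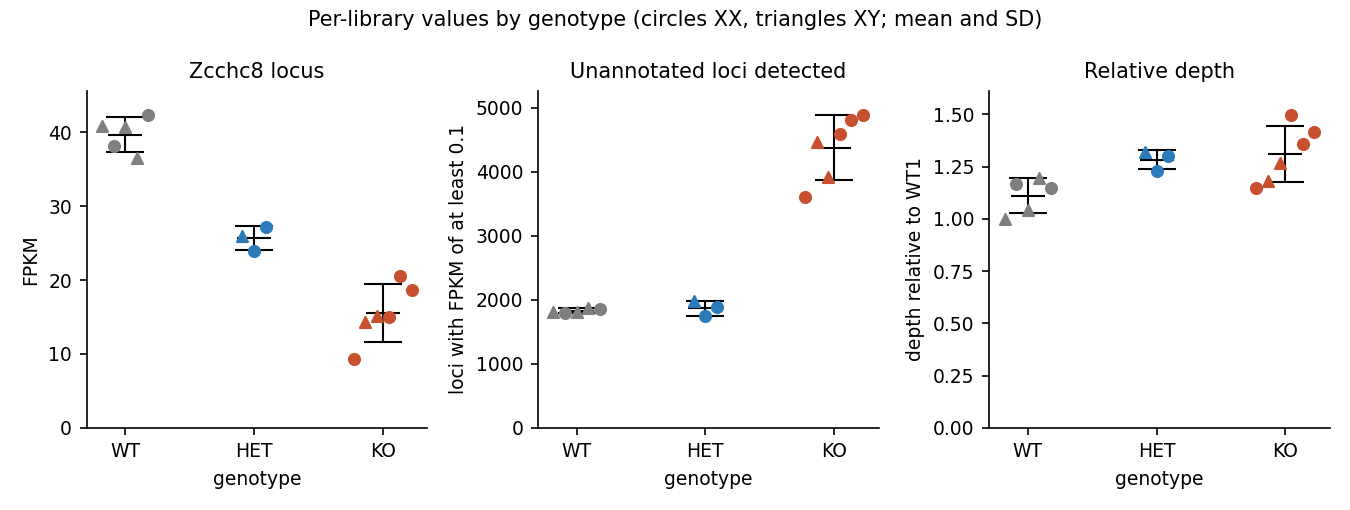
Zcchc8 FPKM, the number of unannotated loci with an FPKM of at least 0.1, and relative depth (y axes) in each library by genotype (x axis), with circles for female and triangles for male libraries and the mean and SD of each genotype in black. Zcchc8 is at 9.27 to 20.6 in KO and 24 to 27.2 in HET, unannotated loci detected are 3602 to 4882 against 1744 to 1983, and relative depth overlaps.

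More loci were called higher than lower in KO heads, but the filter on low values has a part in this count. Of the 18217 loci, 3265 were higher in KO than in HET (17.9%) and 794 lower (4.36%), 22.3% in either direction. The median log2 difference was 2.09 for the first set and -0.32 for the second. The KO libraries lay above the HET libraries without overlap at 17.7% of all loci and below them at 5.19%. A locus could enter the test with the help of the 6 KO libraries, and one that needed them was selected for a higher level in KO. This holds for 3040 of the tested loci, 2132 of them among the 3265. Of the 15177 loci that reached the minimum in at least 3 HET or WT libraries, 1133 were higher (7.47%) and 794 lower (5.23%), with a median log2 difference of -0.02. Over all tested loci, changes of at least 2-fold were called for 2507 loci higher and 40 lower. The median over all loci was 0.02. In the lowest quartile of mean FPKM, 2121 of 4555 loci were higher and 46 lower. In the highest it was 103 higher and 220 lower of 4554.

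The 794 lower loci depended on single libraries and on the scaling. Without HET3, 267 were lower and 2895 higher, without HET4 354 and 2837, and without KO4 525 and 3112. Quantile normalization gave 2092 higher loci and 3256 lower ones. In the authors' matrix of log2 values, the fit covered only the 16697 tested loci without a blank in any KO or HET library. Their median difference lay at 0.18, and 4406 were higher and 217 lower. All counts from this matrix below are limited to such loci.

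Beside these, the same fit found KO above WT at 3463 loci (19%) and below at 1022 (5.61%), 24.6% together, and 1 locus higher (0.00549%) and none lower in HET than in WT, where 354 loci had an unadjusted p under 0.05 in limma-trend. The 3 comparisons share libraries, so their values are given side by side and not set against each other.

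Classes of loci and strands differed in how many loci were called. Among 2004 tested unannotated loci, 1260 were higher and 5 lower, with a median log2 difference of 2.20, and 247 of the higher ones were listed at 0 in all 3 HET libraries. Of these 2004, 1572 passed the filter only through KO libraries, so the count is in large part set by the filter, and a further 12310 unannotated loci were not tested. Among the 432 that passed without KO libraries, 100 were higher (23.1%) and 5 lower, with a median of 0.26. Among 10958 loci with the name of 1 coding gene and on that gene's strand, 417 were higher and 668 lower, with a median of -0.04. Of 550 loci that carry 1 coding gene's name but lie on the other strand, 302 were higher and 1 lower, with a median of 1.15, and 325 of the 550 passed the filter only through KO libraries. Among the other 225, 63 were higher (28%) and 1 lower, with a median of 0.24. Of coding loci on the gene strand that passed without KO libraries, 338 of 10763 were higher (3.14%) and 668 lower. The difference between the classes in these shares was not tested. Among loci that passed without KO libraries, 13 of 63 small RNA, 46 of 131 long non-coding and 361 of 1277 clone-named loci were higher, and 24 of the last were lower. For coding loci on the gene strand the balance turned with the scaling, with 297 higher and 2304 lower after quantile normalization and 2208 higher and 165 lower in the authors' matrix. Without HET3 it was 281 and 221, without HET4 283 and 300, and without HET5 345 and 451. Leaving out any 1 KO or HET library left 1201 to 1276 unannotated and 273 to 313 other-strand loci higher. In the authors' matrix, which is blank where an FPKM is 0, 561 unannotated and 201 other-strand loci were higher, and after quantile normalization 840 and 164.

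**Figure D2:**
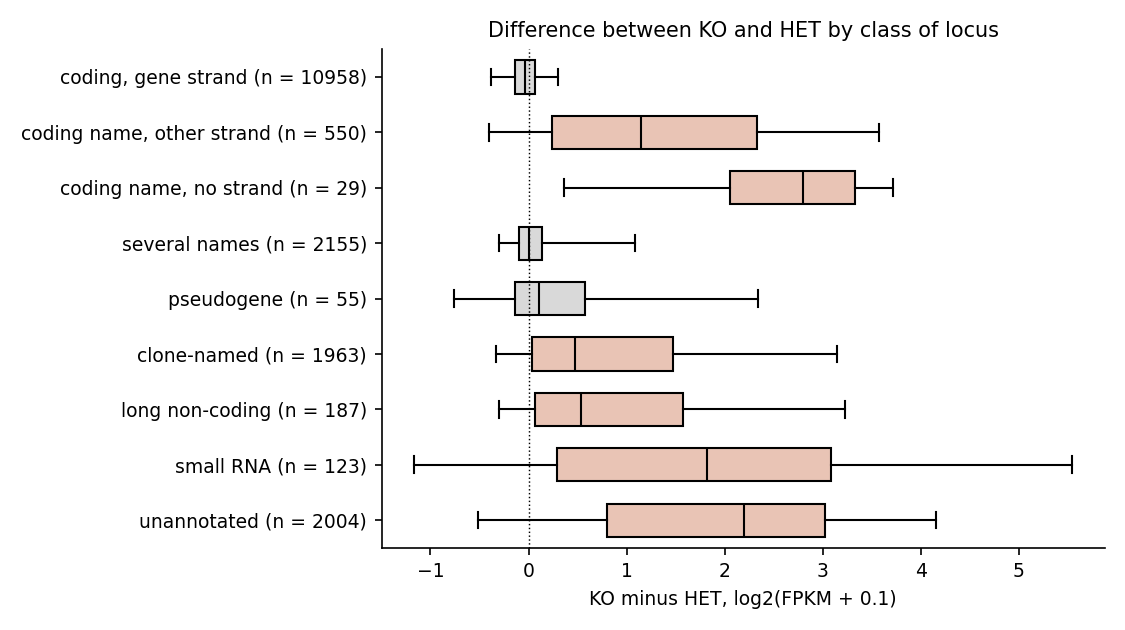
Log2 difference between KO and HET (x axis, log2(FPKM + 0.1)) for each class of locus (y axis), over all tested loci, including those that passed the filter only through KO libraries, with boxes from the lower to the upper quartile, a line at the median and whiskers from the 5th to the 95th percentile. Loci on the strand of a coding gene centre near 0 (median -0.04), loci with a coding gene's name on the other strand near 1.15 and unannotated loci near 2.20.

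The KO libraries differed among themselves. Relative to the HET mean of each locus, the median over the 2004 tested unannotated loci was 1.85 in KO1 and between 2.29 and 2.57 in the other KO libraries, and for the 550 other-strand loci it was 0.80 in KO1 and 1.09 to 1.42 in the others. These medians describe loci that mostly entered through the KO libraries and are no test. KO1 was the lowest KO library in both.

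Many gained unannotated loci lay close before gene starts. Distances were taken to GENCODE M21 gene starts for the 1604 unannotated loci with a coordinate range of their own, of which 999 were higher, with a median span of 1222 bases. Within 1 kb upstream of a start, 654 of 772 were higher and none lower, with a median level of 0.0347 FPKM in HET and 1.11 in KO. Of these 772, 675 passed the filter only through KO libraries, which selects for a higher level there. Among the 97 that passed without them, 49 were higher and none lower, with a median log2 difference of 0.87, beside 7.47% higher over all loci so chosen. Of those with a strand, 301 ran opposite to the gene, 269 of them higher, and 44 ran with the gene, 39 of them higher. A further 427 had no strand, 346 of them higher. From 1 to 5 kb upstream, 51 of 116 were higher, beyond 5 kb upstream 168 of 388, and beyond 5 kb downstream 116 of 296. The counts by strand and for these other zones include loci that passed the filter only through KO libraries. They were not recounted without such loci, so zones and strands are not compared. Just downstream of starts few unannotated loci were tested, 8 within 1 kb and 10 from 1 to 5 kb. In the authors' matrix, 289 loci within 1 kb upstream were higher.

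**Figure D3:**
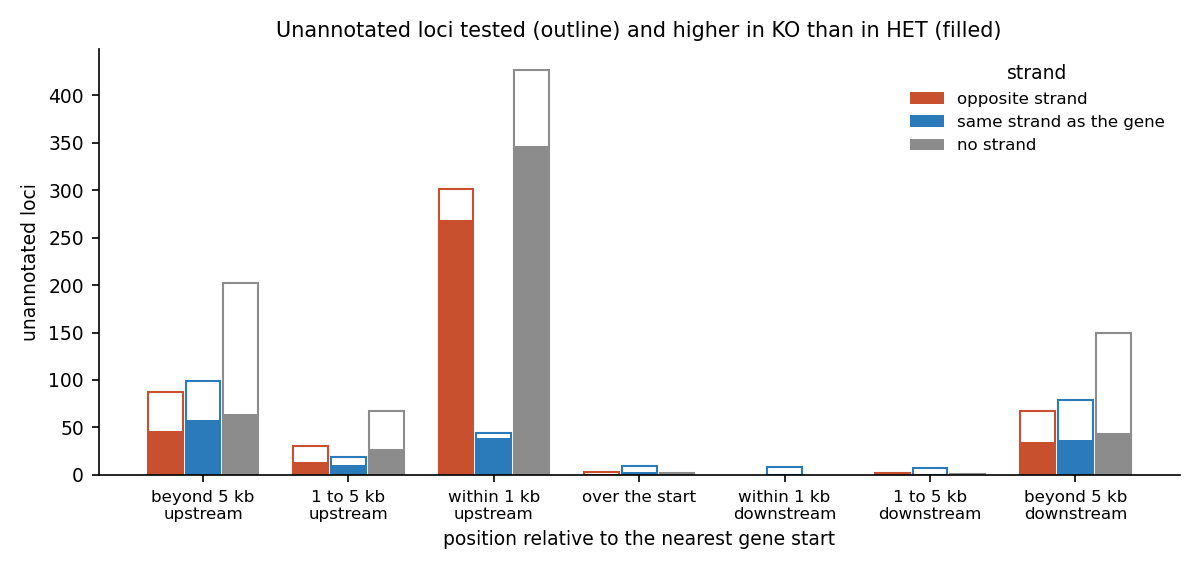
Number of unannotated loci (y axis) by position relative to the nearest gene start (x axis) and by strand relative to that gene, with outlines for the loci tested and fills for those higher in KO than in HET. Within 1 kb upstream, 269 of 301 opposite-strand, 39 of 44 same-strand and 346 of 427 strandless loci are higher. Loci that passed the filter only through KO libraries are included.

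The promoter sequences of 4 genes show where such RNA lies. They were read from RefSeq promoter windows of GRCm38.p6, the build the files call mm10, and run 5′ to 3′ on the gene's strand through the 250 bases before its start, with the bases inside the gained locus in capitals. The Prpf8 locus was taken by the rule for named loci, and the other 3 were chosen after their values were seen, as opposite-strand loci that reach into the window.
Prpf8 (chr11:75486527-75486776, plus strand): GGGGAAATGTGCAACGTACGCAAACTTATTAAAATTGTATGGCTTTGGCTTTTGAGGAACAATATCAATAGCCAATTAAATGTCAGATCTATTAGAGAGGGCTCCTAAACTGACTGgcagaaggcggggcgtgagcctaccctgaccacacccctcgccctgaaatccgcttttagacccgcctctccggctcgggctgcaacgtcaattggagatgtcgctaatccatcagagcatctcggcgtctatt
Nedd4 (chr9:72662081-72662330, plus strand): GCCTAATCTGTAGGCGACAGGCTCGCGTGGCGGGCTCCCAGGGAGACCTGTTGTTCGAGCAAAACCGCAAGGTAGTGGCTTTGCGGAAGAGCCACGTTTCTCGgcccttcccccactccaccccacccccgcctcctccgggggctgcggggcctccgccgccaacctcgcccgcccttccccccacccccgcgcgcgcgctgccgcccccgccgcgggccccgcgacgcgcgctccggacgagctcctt
Zfp358 (chr8:3492888-3493137, plus strand): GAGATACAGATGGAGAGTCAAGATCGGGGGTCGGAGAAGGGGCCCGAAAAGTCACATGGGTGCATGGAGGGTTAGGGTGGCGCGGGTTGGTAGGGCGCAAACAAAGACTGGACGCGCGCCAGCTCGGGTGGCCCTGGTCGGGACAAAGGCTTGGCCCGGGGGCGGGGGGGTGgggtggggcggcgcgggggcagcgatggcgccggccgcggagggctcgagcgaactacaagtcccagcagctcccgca
Tmem183a (chr1:134362007-134362256, minus strand): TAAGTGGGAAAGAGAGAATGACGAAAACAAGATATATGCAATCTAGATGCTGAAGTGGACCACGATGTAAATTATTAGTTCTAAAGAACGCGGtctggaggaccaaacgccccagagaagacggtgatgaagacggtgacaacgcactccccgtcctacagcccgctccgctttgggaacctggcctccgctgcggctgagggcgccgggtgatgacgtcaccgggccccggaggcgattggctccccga

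In each of the 4 windows the gained locus covers the part far from the gene and ends before its start, at a distance of 135 bases for Prpf8, 148 for Nedd4, 79 for Zfp358 and 158 for Tmem183a. Beside Nedd4, which encodes a ubiquitin ligase, locus XLOC_062115 (chromosome 9, 72659717 to 72662183, minus strand) was at 0.507, 0.564 and 0.368 FPKM in HET and at 9.23, 11.9 and 14.6 (lowest, median, highest) in KO. All KO libraries lay above all HET libraries (log2 4.35, SE 0.18, limma-trend adjusted p = 2.0e-10). Nedd4 itself was at 447, 472 and 475 FPKM in HET and 429 to 548 in KO (log2 0.02, SE 0.07). Beside Tmem183a, locus XLOC_001274 was at 0.298, 0 and 0.0195 in HET and 2.50 to 8.78 in KO, while Tmem183a had a log2 difference of 0.06 (SE 0.05). Beside Zfp358, locus XLOC_058010 was at 0.015, 0.0161 and 0 in HET and 1.82 to 4.67 in KO. XLOC_001274 and XLOC_058010 passed the filter only through KO libraries.

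Locus XLOC_011569 before Prpf8, the gene of a core spliceosome protein, spans 377 bases (chromosome 11, 75486266 to 75486642, no strand). It was listed at 0 in all HET and all WT libraries and at 2.97, 4.61 and 5.14 FPKM (lowest, median, highest) in KO (limma-trend adjusted p = 5.3e-11). The locus passed the filter only through KO libraries, so a higher level in KO was a condition of its being tested. Prpf8 was at 63.5, 61.2 and 62.6 in HET and 55.5 to 78.0 in KO, groups that overlap (log2 0.10, SE 0.09). Among the unannotated loci with the largest rises was XLOC_033812 (chromosome 2, 75644464 to 75658967, minus strand), which ends 294 bases upstream of the start of Hnrnpa3, an RNA-binding protein gene on the plus strand. It was at 0.250, 0.178 and 0.0751 FPKM in HET and at 11.7, 16.9 and 22.1 in KO (log2 6.02, SE 0.28, limma-trend adjusted p = 6.2e-10). This locus too passed the filter only through KO libraries. The locus of Hnrnpa3 was at 767, 768 and 784 in HET and 700 to 874 in KO, and did not pass the test.

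Other unannotated rises were also taken by the rule for named loci. XLOC_048101 (chromosome 6, 51167479 to 51172730) was at 0.0381, 0.0544 and 0.0256 FPKM in HET and at 5.76, 8.59 and 11 (lowest, median, highest) in KO (log2 5.91, SE 0.22, limma-trend adjusted p = 9.1e-11). XLOC_051100 (chromosome 6, 38380951 to 38381204), 265 bases upstream of Ttc26, was at 0.118, 0 and 0.33 against 7.44 to 14.5. XLOC_059334 (chromosome 8, 25318943 to 25319087) was listed at 0 in HET and was at 1.55 to 13.5 in KO, a call lost with female libraries alone (limma-trend adjusted p = 0.0575), but it also reached 2.46 and 2.66 in WT4 and WT5, above the lowest KO libraries. These 3 loci were taken from called loci without overlap between KO and HET, so their separation follows from the choice. They passed the filter only through KO libraries. Among the 5 unannotated loci that fell was XLOC_010333 (chromosome 11, 70763477 to 70776133), at 1.34, 0.693 and 1.01 in HET and 0.000312 to 0.527 in KO (log2 -1.87, SE 0.45, limma-trend adjusted p = 0.0062).

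Letters of the promoters were counted in the 250 bases before each start. Windows of genes with a gained locus within 1 kb upstream (541 windows of 498 genes) held a median of 20 CG dinucleotides, against 15 in 10971 windows of coding genes with a tested locus on their strand and 6 in all 32536 windows. The polyadenylation hexamer AATAAA was found on the strand opposite to the gene in 2.03% of the windows with a gained locus (11 windows), in 4.93% of the windows of tested coding genes and in 9.40% of all. On the gene's strand it was found in 4.44%, 5.68% and 10.3%. The median share of G and C letters in these windows was 64%, 60% and 52.4%. The 5′ splice site letters GTAAGT on the opposite strand were found in 2.03%, 1.79% and 3.14%. These differences were not tested. Of the gained loci within 1 kb upstream, 605 passed the filter only through KO libraries and 49 without them, so the choice of these windows rests largely on that filter. The motifs do not overlap each other. A match is only a run of letters, and the windows with a gained locus are also those of more abundant genes, with a median of 21.3 FPKM in HET against 11.8 over coding loci.

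The mRNA of genes with gained upstream or opposite-strand RNA was mostly uncalled. Of 540 coding loci with any gained unannotated locus within 1 kb upstream, 7 were higher and 19 lower, with a median log2 difference of -0.01. Over all 10947 coding genes, 414 were higher (3.78%) and 668 lower (6.10%), with a median of -0.04. Of 247 genes whose other-strand locus rose, 16 were higher (6.48%) and 13 lower (5.26%) on the gene strand, with a median of -0.02. The 4 largest of the 16, named after their values were seen, were Ppp1r27 (log2 2.84, SE 0.23), Cstad (log2 2.64, SE 0.20), Cpb2 (log2 2.29, SE 0.35) and Smc1b (log2 1.70, SE 0.25) on the gene strand, with HET means of at most 0.401 FPKM. The coordinate range given for such other-strand loci is shared with the gene. Among those whose range holds at most 4 loci, it reached 300 bases or more before the gene's outermost start in 149 of 190 higher loci (78.4%) and in 81 of 147 others (55.1%). This difference was not tested. Of all higher other-strand loci, 239 passed the filter only through KO libraries and 63 without them. For gained loci within 1 kb upstream it was 605 and 49. The counts of this paragraph were not repeated without loci that needed KO libraries.

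**Figure D4:**
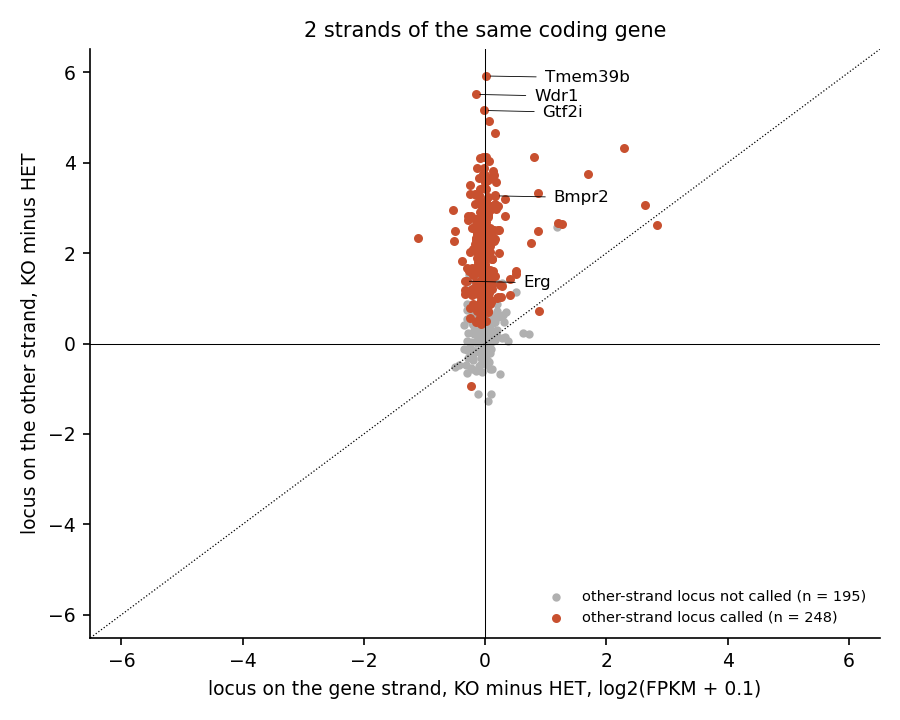
Log2 difference between KO and HET for the locus on a coding gene's own strand (x axis) and for the locus of the same name on the other strand (y axis), 1 point per pair, with called other-strand loci in red. Most red points stand along the vertical axis, with Tmem39b, Wdr1 and Gtf2i above 5 on the other strand and between -0.15 and 0.02 on the gene strand.

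The pairs named next were taken for a large rise on the other strand, so that rise and the separation of the groups there only describe them. The other-strand loci of Tmem39b, Gtf2i, Wdr1, Id3, Mdm2, Trp53inp1, Msx2 and Erg also passed the filter only through KO libraries. The other-strand locus of Tmem39b, a transmembrane protein gene on chromosome 4, was listed at 0 in HET3, HET4 and HET5 and was at 4.84, 6.15 and 7.03 FPKM (lowest, median, highest) in KO (limma-trend adjusted p = 1.8e-11). Tmem39b on its own strand was at 15.9, 16.3 and 16.8 in HET and 14.4 to 17.8 in KO (log2 0.02, SE 0.07). The groups were fully apart on one strand and overlapped on the other.

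The other-strand locus of Gtf2i, which encodes a general transcription factor, was at 0.0665, 0.0275 and 0.0605 FPKM in HET and at 4.54, 5.33 and 5.95 in KO (log2 5.16, SE 0.17, limma-trend adjusted p = 3.9e-11), and Gtf2i itself at 137, 141 and 140 against 128 to 146. That of Wdr1, an actin disassembly factor, was at 0.0788, 0.0171 and 0.0657 in HET and 4.65 to 8.41 in KO (log2 5.51, SE 0.22), and Wdr1 itself had a log2 difference of -0.15 (SE 0.06, limma-trend adjusted p = 0.059). In each of these pairs every KO library exceeded every HET library on the other strand only.

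Regulators of development and of stress responses were among the pairs. Opposite to Id3, an inhibitor of bHLH transcription factors, the locus was at 0.0181, 0.0285 and 0.0898 FPKM in HET and 3.18 to 5.20 in KO (log2 4.93, SE 0.29), while Id3 was at 119, 140 and 128 against 98.5 to 165. Opposite to Bmpr2, a receptor for bone morphogenetic proteins, it was at 1.67, 1.63 and 1.36 in HET and 12.4 to 18.9 in KO (log2 3.27, SE 0.15), while Bmpr2 had a log2 difference of 0.17 (SE 0.08, limma-trend adjusted p = 0.191). On this pair the other-strand RNA of the KO libraries reached the level of the gene itself, at 12.2 to 16 FPKM.

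Opposite to Mdm2, the ubiquitin ligase of p53, the log2 difference was 3.61 (SE 0.21), against 0.04 (SE 0.07) on the gene strand. For Trp53inp1, a p53 target, the values were 4.14 (SE 0.21) and -0.04 (SE 0.09), for the Wnt effector Tcf7l2 3.31 (SE 0.18) and -0.16 (SE 0.14), and for the homeobox gene Msx2 3.57 (SE 0.29) and 0.17 (SE 0.13). In these 4 pairs the other-strand locus passed the test and the gene did not. Erg, an endothelial transcription factor gene, went both ways: its own strand was lower, at 9.52, 9.78 and 9.43 FPKM in HET and 6.94 to 8.16 in KO (log2 -0.33, SE 0.07, limma-trend adjusted p = 0.0021), and its other strand was higher (log2 1.38, SE 0.40), a call lost without HET4 (limma-trend adjusted p = 0.105) or HET5 (0.0557).

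The strand also bore on Rnu11, the U11 RNA of the minor spliceosome. The 2 loci with this name share the range 132270056 to 132270213 on chromosome 4. The one that rose lies opposite to the gene, at 0, 0 and 0.831 FPKM in HET and 16.8, 26.7 and 67.5 (lowest, median, highest) in KO (log2 7.19, SE 1.03, limma-trend adjusted p = 1.4e-04). It passed the filter only through KO libraries. The one on the gene's strand was at 0, 3.36 and 2.80 in HET and 0 to 9.30 in KO, which overlap (log2 -0.18, SE 2.20). The assignment of fragments within a range this short was not tested.

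Small RNA genes on their own strand were called higher in part. These RNAs are processed at the 3′ end by the exosome, and mature forms carry no long poly(A) tail. Of 6 spliceosomal small nuclear RNA loci, 2 were higher and none lower. Of 39 box C/D and U3 small nucleolar RNA loci, which guide or support ribosomal RNA modification and cleavage, 8 were higher and none lower (median 0.07). Of 38 box H/ACA and Cajal body RNA loci 9 were higher and none lower (median 0.10), and of 19 small nucleolar RNA host genes 4 and none (median 0.13), beside 17.9% higher over all loci. Among those that passed the filter without KO libraries, 6 of 35 C/D, 8 of 34 H/ACA and 4 of 19 host loci were higher, beside 7.47% over all loci so chosen. With female libraries alone, 4 H/ACA loci and 2 host genes were higher, and 2 host genes without HET3, HET4 or HET5 each.

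The U3 genes Rnu3b1 and Rnu3b4 were near 0 in HET and clear in all KO libraries. Rnu3b1 was at 0.108, 0 and 0 FPKM in HET and at 8.56, 14.6 and 19.1 in KO (limma-trend adjusted p = 3.4e-09), and Rnu3b4 at 0, 0 and 0.187 against 5.64 to 13.7 (adjusted p of the same fit 2.3e-09). Both loci passed the filter only through KO libraries. Near-identical copies of U3, U1 and U2 genes can share fragments, so the copy is uncertain. The U1 gene Rnu1b6 was at 12.8, 8.85 and 11.2 in HET and 23.8 to 64.8 in KO (log2 1.83, SE 0.27), and the U2 gene Rnu2-10 at 32.9, 35.2 and 103 against 106 to 207, a call lost without HET3 (limma-trend adjusted p = 0.0826) or HET4 (0.077). The locus that names Terc, the telomerase RNA, together with a clone was at 1.83, 1.17 and 1.92 in HET and at 6.57, 7.82 and 11.5 in KO (log2 2.28, SE 0.19, limma-trend adjusted p = 2.0e-07).

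Some loci that join a host gene to the small RNA in its introns were among the higher ones. The locus of Snx5, Snord17 and other names was at 69.1, 66.9 and 71.9 FPKM in HET and 114, 149 and 204 in KO (log2 1.13, SE 0.13), and that of Snhg18 and Snord123 at 10.7, 9.34 and 9.63 against 15 to 19.4 (log2 0.84, SE 0.09). That of Cct6a, Snora15 and Sumf2 had a log2 difference of 0.45 (SE 0.07). All 3 passed the test, with every KO library above every HET library. Since these loci pool several genes, which of them gained RNA cannot be read from the values.

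Histone genes rose as a group. The replication-dependent histones are encoded by intronless genes whose mRNA ends in a stem-loop and not in a poly(A) tail. Of 50 tested loci, 39 were higher and 1 lower, with a median log2 difference of 1.24, against 17.9% higher and a median of 0.02 over all loci. Of the 42 that passed the filter without KO libraries, 31 were higher and 1 lower (median 1.19). Of 15 loci for proteins that form histone mRNA ends, none was higher and 1 lower, Lsm10 (log2 -0.22).

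Hist2h2be, an H2B gene, was at 6.79, 6.53 and 6.97 FPKM in HET and at 24.8, 25.2 and 27.1 in KO (log2 1.91, SE 0.06, limma-trend adjusted p = 2.3e-11), with little spread in either group. Hist1h2bp, another H2B gene, was at 0.187, 0.258 and 0.306 in HET and 9.50 to 17.7 in KO (log2 5.34, SE 0.20), and passed the filter only through KO libraries. The locus that joins Hist1h4i, Hist1h4k and Hist1h4n to the protease gene Prss16 was at 25.2, 29.5 and 28.9 in HET and 302 to 584 in KO (log2 4.02, SE 0.16). These ranges hold many near-identical genes, so the member that gained RNA is uncertain. The 1 lower member was Hist1h2bc (log2 -0.45).

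Among microRNA loci, 33 of 231 were higher and 9 lower, with a median of 0.03, beside 17.9% higher and a median of 0.02 over all loci. The values are of long host or primary transcripts, not of mature microRNA. The locus of Dleu2 and Mir16-1 was at 6.03, 6.30 and 6.25 FPKM in HET and at 25, 34 and 40.5 in KO (log2 2.42, SE 0.13, limma-trend adjusted p = 3.0e-09). That of Mir130a and a clone was at 4.89, 4.95 and 5.35 against 20.9 to 32.7 (log2 2.33, SE 0.16), and that of Mir205 at 0.229, 0.197 and 0.485 against 2.65 to 5.63. All KO libraries exceeded all HET libraries at these 3 loci, but the Mir205 locus passed the filter only through KO libraries.

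Among the 417 coding loci higher on their own strand were those of 2 neuroendocrine genes. Pomc, the precursor of pituitary and hypothalamic peptide hormones, was at 2.14, 2.43 and 2.53 FPKM in HET and at 16.4, 18.8 and 20.9 in KO (log2 2.92, SE 0.11, limma-trend adjusted p = 1.6e-10). Nmur1, a neuropeptide receptor, was at 0.264, 0.127 and 0.120 against 3.56 to 6.89 (log2 4.34, SE 0.22), and passed the filter only through KO libraries. Of 8 pituitary loci Pomc alone passed the test, beside 17.9% higher over all loci. Whether the Pomc fragments come from the whole gene or from a part of it cannot be read from these values.

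Few loci of the decay machinery were called. Over all loci 17.9% were higher and 4.36% lower, and of coding loci on the gene strand 3.81% were higher. None of 15 RNA exosome core loci passed the limma-trend test (median 0.0042), and Exosc3 had a log2 difference of 0.20 (SE 0.08, limma-trend adjusted p = 0.117). Of 14 exosome adaptor loci 1 was higher, the locus of Srrt, which encodes the cap-complex partner ARS2, and Mir7036, at 108, 93.3 and 104 FPKM in HET and 129 to 155 in KO (log2 0.49, SE 0.07, limma-trend adjusted p = 7.1e-05). Of 27 loci for transcription termination and poly(A) site choice 4 were higher, but 1 without HET3 or with female libraries alone, 2 without HET5, and 14 in the authors' matrix. Pcf11, a cleavage factor for transcript ends, was at 18.3, 16.2 and 17.5 in HET and 22.2 to 32.7 in KO (log2 0.67, SE 0.09, limma-trend adjusted p = 4.3e-05).

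A part of the interferon response genes was called higher, at low levels. Of 24 loci, 8 were higher and none lower, with a median of 0.18, beside 17.9% higher over all loci, but 3 were higher without HET3 and 3 with female libraries alone, and 4 after quantile normalization. HET3 had the lowest value of the HET libraries for Usp18, Isg15, Bst2 and Rtp4. Usp18, a protease that removes ISG15, was at 0.157, 0.386 and 0.601 FPKM in HET and at 1.01, 1.12 and 1.81 in KO (log2 1.56, SE 0.27, limma-trend adjusted p = 3.4e-04). Irf7, an interferon regulatory factor, was at 0.515, 0.575 and 0.461 against 0.878 to 2.07 (log2 1.15, SE 0.25), a call lost after quantile normalization (limma-trend adjusted p = 0.229). Isg15, a ubiquitin-like protein, was at 0.640, 1.48 and 1.52 against 2.04 to 6.31, and its call was lost without HET3 (limma-trend adjusted p = 0.0868).

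Crystallins, the structural proteins of lens fibre cells, had the lowest median of the gene lists described here. They were lower in 12 of 14 loci and higher in none, with a median log2 difference of -1.53, against 4.36% lower over all loci. Summed over the 14 loci, FPKM was 167 to 277 in HET, 152 to 214 in WT and 44.1 to 205 in KO, so the groups overlapped in their sums. The list's median in HET against WT was 0.29. The count rested on single libraries: without HET3 or without HET4, 4 of 14 were lower, without KO3 8, without KO6 9 and with female libraries alone 5, while without HET5 it was 13. The share of lens tissue in each head was not measured.

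Crygd, a gamma crystallin, was at 7.09, 5.24 and 2.82 FPKM in HET and at 0.103, 0.571 and 2.79 (lowest, median, highest) in KO (log2 -2.74, SE 0.63, limma-trend adjusted p = 0.0054). Crygc was at 3.41, 2.65 and 2.75 against 0.553 to 2.38 (log2 -1.54, SE 0.32). KO2 was the highest KO library for Crygd, Crygc and Crygb, and also for Cryba4 and Lim2, described next. For the alpha crystallin Cryab it was KO5. No KO value of Crygd or Crygc reached a HET value, but Crygd was at 2.79 in KO2 and 2.82 in HET5. The beta crystallin Cryba4 was at 10.5, 9.89 and 5.59 in HET and 0.853 to 5.91 in KO, which overlap (log2 -2.01, SE 0.44, limma-trend adjusted p = 0.0036). Lim2, a membrane protein of lens fibres, was at 2.27, 2.25 and 1.17 against 0.217 to 1.40, and was the only one of 21 lens and retina factor loci to pass the test.

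Several epithelial keratins were lower without overlap. Of 24 surface epithelium loci, 7 were lower and none higher (median -0.18), beside 4.36% lower over all loci. After quantile normalization 12 were lower, and without HET3 or HET4 5. For all 24, the summed FPKM was 198 to 209 in HET and 155 to 190 in KO. Krt5, a basal keratin, was at 31.6, 32.4 and 32.7 FPKM in HET and at 16.1, 20.3 and 24 in KO (log2 -0.68, SE 0.12, limma-trend adjusted p = 5.0e-04). Its partner Krt14 was at 22.9, 23.6 and 22.7 against 11.4 to 16.2 (log2 -0.71, SE 0.13), and Krt15 at 15.4, 15.3 and 14.2 against 6.61 to 10.9 (log2 -0.81, SE 0.15). The HET libraries agreed closely on these 3 genes, and every KO library lay below them.

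A part of the matrix genes was lower. Of 31 head mesenchyme loci, 7 were lower and 1 higher (median -0.11), beside 4.36% lower over all loci, and 4 were lower without HET4 and 2 in the authors' matrix. The lower members were the collagens Col1a2, Col3a1, Col5a2, Col6a1 and Col6a2, the proteoglycan Dcn and the crosslinking enzyme Lox. Col1a2, a chain of type I collagen, was at 221, 221 and 214 FPKM in HET and at 150, 168 and 186 in KO (log2 -0.38, SE 0.07, limma-trend adjusted p = 7.9e-04). Outside the list, the elastin gene Eln was at 16.6, 15 and 13.3 against 7.70 to 10.6 (log2 -0.78, SE 0.13), and Mgp, an inhibitor of calcification, at 16.2, 12.8 and 12.1 against 6.81 to 9.39 (log2 -0.81, SE 0.17). In the list, Foxc1, in a locus shared with a clone, was the higher member (log2 0.49). Alpl, the phosphatase of mineralizing tissue, was lower (log2 -0.51, SE 0.07), in a list of 23 cartilage and bone loci with 4 lower and 2 higher, and with 1 lower without HET3 or with female libraries alone, 2 without HET4, 8 after quantile normalization and none in the authors' matrix by limma-trend.

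Choroid plexus loci were lower in 5 of 17 cases and higher in none (median -0.23), beside 4.36% lower over all loci, with 2 lower without HET3, 3 without HET5 or with female libraries alone, and 10 after quantile normalization. Their summed FPKM was 799 to 826 in HET and 474 to 805 in KO. Ttr, the thyroid hormone carrier made by that tissue, was at 124, 107 and 118 FPKM in HET and at 49.2, 77.9 and 97.4 in KO (log2 -0.66, SE 0.17, limma-trend adjusted p = 0.0113), and its call was lost without HET3 (0.0597). The locus of Foxj1, a regulator of motile cilia, and Rnf157 was at 33.4, 34.4 and 31.1 against 20.4 to 28.3 (log2 -0.44, SE 0.08), and that of the water channel Aqp1 and Fam188b had a log2 difference of -0.42 (SE 0.08). At these 3 loci no KO library reached a HET library.

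Skeletal muscle loci had a median of -0.84, but 3 of 33 were lower by the test and none higher, beside 4.36% lower over all loci. Their summed FPKM ran from 325 to 427 in HET and from 101 to 382 in KO. Csrp3, a muscle LIM protein, was at 1.59, 1.45 and 1.1 FPKM in HET and 0.0704 to 0.923 in KO (log2 -1.83, SE 0.46, limma-trend adjusted p = 0.0084). Myl4 and Actn2, sarcomere genes, had log2 differences of -1.20 (SE 0.38) and -1.17 (SE 0.39), and both calls were lost without HET3, HET4, HET5, KO1 or KO4 (limma-trend adjusted p 0.0634 to 0.167 over these for both genes), for Myl4 also without KO2 and for Actn2 also without WT1, WT2, WT3 or WT5. The count of lower muscle loci was 15 without KO5, 9 after quantile normalization, 7 without KO3, and 1 without KO1, KO4 or any 1 HET library.

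Neural genes were mostly uncalled. Of 26 neural progenitor loci 1 was higher and 1 lower (median 0.02), and of 31 loci of postmitotic neurons 2 were higher and 5 lower (median -0.16), beside 4.36% lower over all loci. The log2 difference was below 0 for 26 of the 31, called or not. The count of lower ones was 1 without HET3 or in the authors' matrix, 2 without HET4, KO4 or KO6, 3 without KO1 and 13 without KO2. The higher members were the transcription factor genes Onecut1 and Onecut2. Nsg1, a neuronal trafficking protein, was at 178, 175 and 162 FPKM in HET and at 132, 137 and 159 in KO (log2 -0.30, SE 0.07, limma-trend adjusted p = 0.0066). Summed FPKM of the progenitor loci was 2085 to 2181 in HET and 1903 to 2301 in KO, which overlap. The neuropeptide genes Gal (log2 -0.88, SE 0.17) and Npy (log2 -0.88, SE 0.20) were lower.

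Blood, vessel and pigment loci, which a whole head also holds, were mostly uncalled. Over all loci 17.9% were higher and 4.36% lower. Among 18 endothelium loci 1 was lower and 0 were higher. Of 19 myeloid and mast cell loci 1 was lower, the mast cell protease gene Cpa3, at 1.31, 1.29 and 1.05 FPKM in HET and at 0.305, 0.371 and 0.537 in KO (log2 -1.45, SE 0.17, limma-trend adjusted p = 8.7e-06). Of 15 erythroid loci 3 were higher and 1 lower, the adult beta globin locus of Hbb-bs and Hbb-bt, whose call was lost without HET3 (0.121, limma-trend adjusted p) or HET4 (0.0866). None of 8 pigment cell loci was called (limma-trend). No list named here had a tested member at 0 in all HET and KO libraries. Whether the share of each tissue in a head bears on the gene groups above was not tested.

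**Figure D5:**
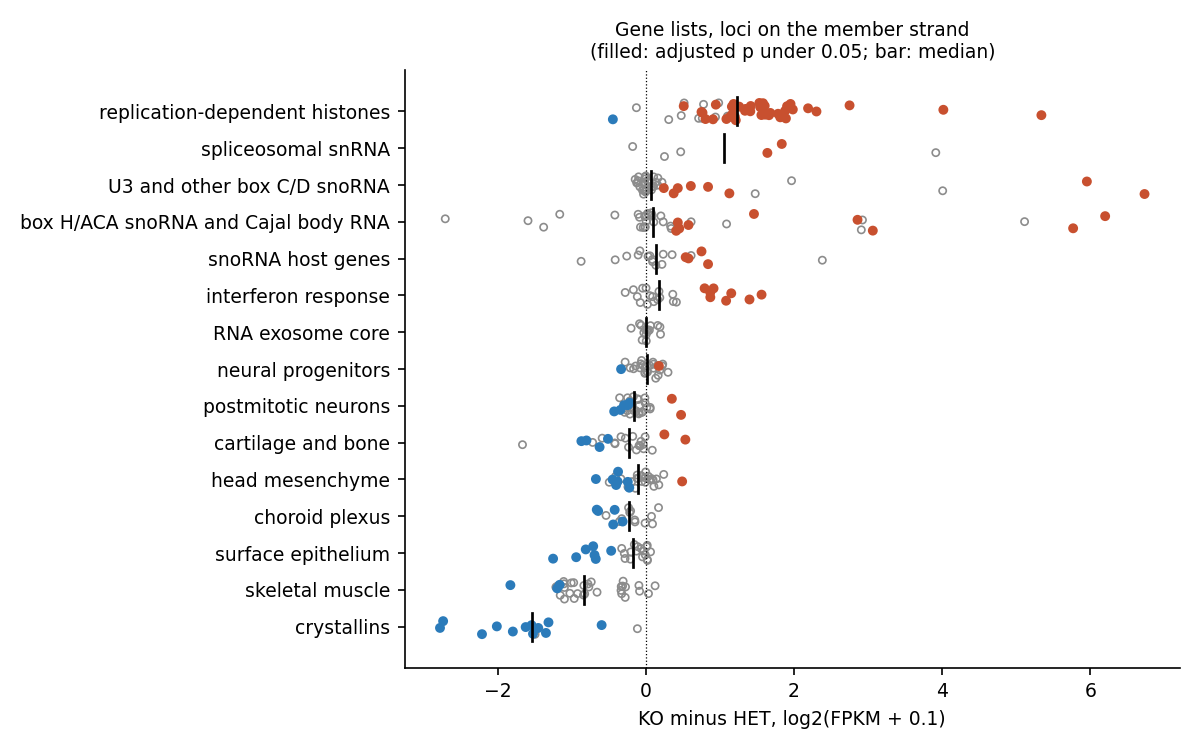
Log2 difference between KO and HET (x axis, log2(FPKM + 0.1)) of the tested members of 15 gene lists (y axis), with filled points for members called higher (red) or lower (blue), open points for the others and a bar at the median. Histone members lie mostly above 0 (39 of 50 called higher), crystallins below (12 of 14 called lower), and skeletal muscle members are mostly below 0 and uncalled.

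Of 15 Hox loci on their own strand, 2 were called, both lower (median -0.67). The log2 difference was below 0 for 14 of the 15, called or not. Their summed FPKM was 23.1 to 68 in HET, 33.4 to 71.9 in WT and 4.03 to 107 in KO, a wide spread that overlaps both. Over all loci, the shares to set beside each list in this paragraph were 17.9% higher and 4.36% lower. Hoxd8 (log2 -1.02, SE 0.35) and Hoxd1 (log2 -0.50, SE 0.16) had limma-trend adjusted p-values of 0.0481 and 0.037, and the calls were fragile. That of Hoxd8 was lost without HET3, HET4, KO1, KO2, KO4, KO6 or any 1 WT library (limma-trend adjusted p 0.0512 to 0.209), and that of Hoxd1 without HET3, HET4, HET5, KO2, KO4 or KO6 (0.0519 to 0.135). Of 79 cytosolic ribosomal protein loci 1 was lower and none higher (median -0.04), Rps19, whose call was lost without HET4 (limma-trend adjusted p = 0.12), HET5 (0.123) or KO4 (0.0573). Of 38 cell cycle and replication loci 2 were higher, among them Mki67 (log2 0.29, SE 0.08), a proliferation marker, whose call was lost without HET4 (0.0788, limma-trend adjusted p). Of 24 p53 target loci on their own strand 2 were higher and 2 lower (median -0.0046), and of 30 imprinted loci none was called by limma-trend. Of the 5 tested other-strand loci of imprinted genes 4 were higher, beside 54.9% of the 550 other-strand loci of coding genes. Of those 550, 325 passed the filter only through KO libraries.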

How the data were processed

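RNA was measured in 14 libraries, 9 of which (6 KO, 3 HET) enter the comparison. The authors deposited FPKM values per locus for each library and a matrix of log2 FPKM, which the values show to be quantile normalized and blank at 0. Per the submitters' processing notes, bcl2fastq, FastQC 0.10.0, TopHat2 2.1.0, Partek and Cuffdiff were used with build mm10. Read counts were not used here, so depth is known only in relative terms, and no counting interval is given.

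The model was limma 3.58.1 (R 4.3.3) with trend on log2(FPKM + 0.1), fitted to all 14 libraries with 1 term per genotype, without the replicate number. Benjamini-Hochberg adjustment covered all 18217 loci, and limma-trend adjusted p-values are meant wherever an adjusted p is printed. Values of which a library has only 1 went through exact permutation tests, two-sided (scipy 1.17.1). The fit was tested on simulated data.

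Strand was read from the listing order and gene starts from GENCODE M21, a choice made after seeing the data. Promoter letters came from RefSeq windows. The comparison, the members and the gene lists were chosen with earlier results of these data known. Named loci were Zcchc8, the largest non-overlapping changes among named loci with a mean of at least 1 FPKM, among coding loci with at least 5 FPKM and among unannotated loci with at least 1 FPKM, and up to 5 called members of each list. Not every locus so chosen is named, and partners on the other strand and genes beside gained loci were added after their values were seen. Counts over the loci that reached 0.5 FPKM in at least 3 of the 8 HET and WT libraries, in the same fit, were added after seeing the data. Alternatives covered the pseudocount, filter, scaling, block, sex, library weights and each library left out.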

Additional observations from a re-analysis of the deposited data

Results flagged for a closer look

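In 13 of 183 groups of 4 to 10 values, 1 library stood apart from the others by more than the 95% limit of Dixon's test, where chance alone gives about 1 in 20. The library KO2 was the highest of the KO libraries for Crygc (2.38 FPKM), Crygb (1.69), Ptgds (0.851) and Nsg1 (159). Among single KO libraries, KO1 was lowest for the locus of Mir1894 and Ppp1r10 (55.9 FPKM), KO6 highest for Usp18 (1.81) and KO5 highest for Npy (5.93).

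Among WT libraries, which enter the fit only through the spread, WT3 stood apart for the other-strand locus of Rnu11 (1.97 FPKM) and for Kcnj13 (0.810), WT4 for the other-strand locus of Tmem39b (0.0461) and for Krt15 (19.1), and WT5 for Snora16a (22.7) and Hoxd1 (1.93).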

How the results depend on the processing

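Of 92 named loci that were called, 57 kept the call in all alternatives run, 35 lost it in at least 1 and none reversed. The number of loci higher in KO than in HET was 3265. It was 1403 with a stricter filter (1 FPKM in 6 libraries), 2092 after quantile normalization and 2837 to 3398 with 1 library left out. The number of loci lower in KO than in HET was 794. It was 3256 after quantile normalization, 217 in the authors' matrix, 451 with only KO and HET libraries, 1842 with library weights, 480 with female libraries alone and 267 to 932 with 1 library left out. The cause was not tested. A fit that blocked on the replicate number called 409 loci lower in all 14 libraries and 159 in the KO and HET libraries 3 to 5. Deviations of same-numbered KO and HET libraries correlated at 0.0693, 0.0573 and -0.0570, and those of differently numbered ones at -0.101 to 0.0495. With 3 libraries per group, these values cannot decide whether the numbers pair the samples.

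Zcchc8 had a log2 difference of -0.74 with female libraries alone (limma-trend adjusted p = 0.159). With female libraries alone, the KO minus HET difference in loci detected per library was 4201. Its exact permutation p was 0.133, the smallest that this test can give with these libraries. The difference was 3717 to 4242 with 1 library left out. For unannotated loci detected per library it was 2660 with female libraries alone and 2409 to 2665 with 1 left out. Without 1 HET library, the smallest exact permutation p that remains is 0.0714.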

Other observations

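The single locus called between HET and WT was XLOC_027741 (chromosome 17, 79554051 to 79554268). It was at 1.99, 0.629 and 0.542 FPKM in HET3, HET4 and HET5 and was listed at 0 in all KO and all WT libraries. HET4 also held 1 locus at 1124050 FPKM, where the highest value in the other 13 libraries was 218181.

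Malat1, a nuclear long non-coding RNA, was at 46.9, 22 and 29.5 FPKM in HET and 34.6 to 167 in KO, which overlap, and its call (log2 1.53, SE 0.41) was lost without HET4 (limma-trend adjusted p = 0.0984) or HET5 (0.0608). Cpa3 aside, low-level falls without overlap included the brain matrix gene Bcan (log2 -1.14, SE 0.24) and Rlbp1, a retinoid-binding protein gene (log2 -0.86, SE 0.20).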
